A study of Mus musculus with 7 samples.

Results

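The genes described are the 6 that encode the receptors for interleukin 12 (IL12) and interleukin 18 (IL18) together with the IL18 ligand and its soluble inhibitor: Il12rb1, Il12rb2, Il18r1, Il18rap, Il18bp and Il18. They were chosen by symbol, each had 1 probe (a transcript cluster) annotated to that symbol alone, and they are 6 of 19752 genes measured. The groups were 4 arrays of cells cultured for 8 h with interleukin 2 (IL2) at 250 U/ml (replicates 1 to 4) and 3 arrays of cells cultured for the same time untreated (replicates 2 to 4). All cells came from the spleens of male C57BL/6 mice aged 6 weeks and had been enriched for natural killer (NK) cells by negative selection, which removes other cell types rather than picking NK cells. Each RNA sample was hybridised to 1 Affymetrix Mouse Gene 1.0 ST array. Whether replicates are separate mice or cultures is not stated in the labels, and the p-values therefore cover the spread among these arrays alone, which may be technical.

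IL12 is a cytokine released by dendritic cells and macrophages. Its receptor pairs the chain IL12Rβ1, which also serves the IL23 receptor, with the signalling chain IL12Rβ2, and acts through the kinases TYK2 and JAK2 on the transcription factor STAT4. IL18 belongs to the IL1 family, is made as a precursor that caspase-1 cleaves, and binds a receptor of the ligand-binding chain IL18Rα and the accessory chain IL18Rβ, which signals through MYD88, IRAK kinases and TRAF6 to NF-κB. NK cells are known for making interferon-γ when both cytokines act on them together, and the IL18-binding protein is a secreted decoy that keeps IL18 from its receptor.

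After 8 h with IL2, the genes for both IL12 receptor chains were higher than in untreated cells. Il12rb1 rose 3.11-fold and Il12rb2 2.88-fold. Il18bp rose 1.45-fold and passed the test narrowly. The IL18 receptor chain genes Il18r1 and Il18rap and the ligand gene Il18 did not pass the test. In all, 3 of the 6 genes were higher and 0 lower at a Benjamini-Hochberg adjusted p under 0.05 in limma. Of all genes, 2.08% were higher and 0.901% lower. At an unadjusted p under 0.05 in the same fit, 4 of the 6 were higher and 0 lower. The share of all genes at the unadjusted level was not counted, so that unadjusted counts here and below cannot be set against it. The median log2 fold change was 0.52 over the 6 genes and -0.01 over all genes. The count of 3 was 2 without IL2 replicate 1 or untreated replicate 2 or 3, and 1 without IL2 replicate 2, 3 or 4 or untreated replicate 4.

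**Figure D1:**
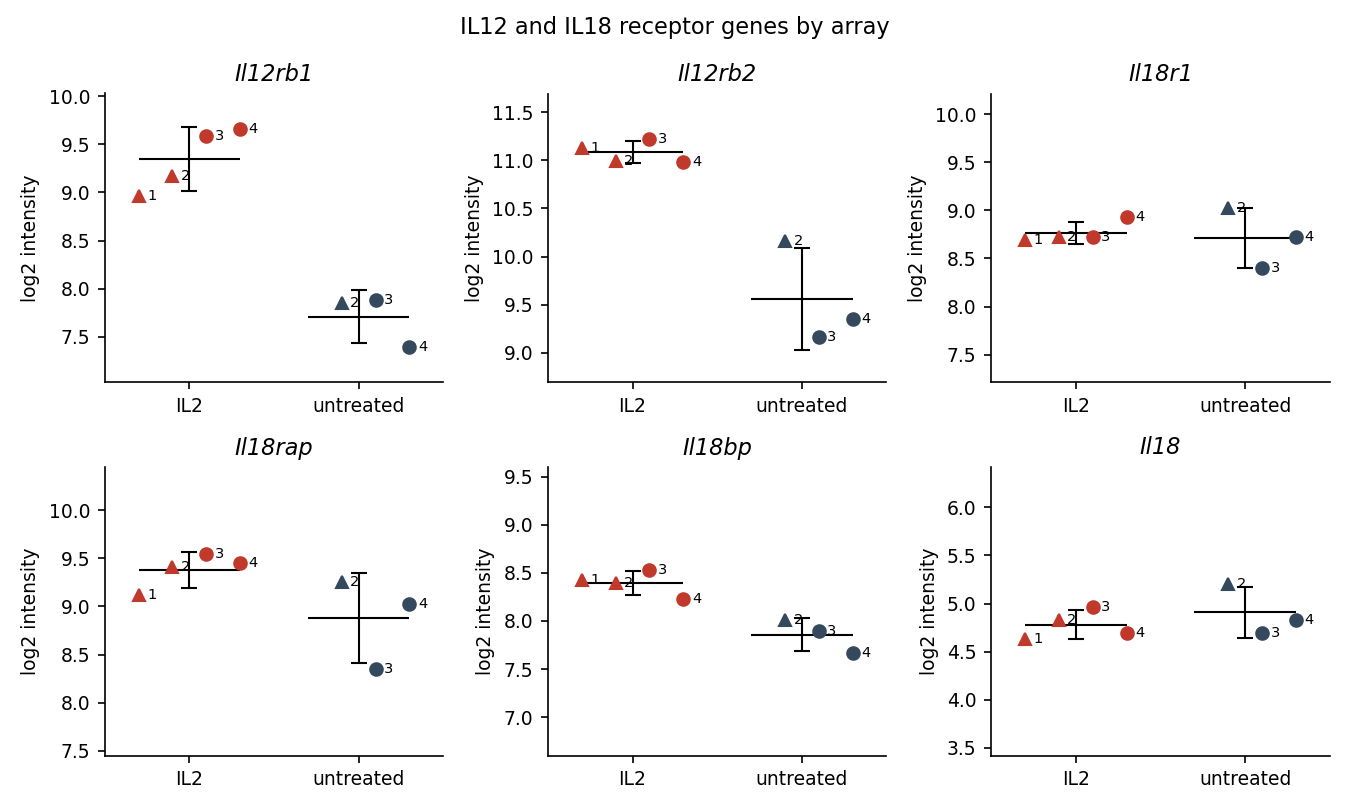
Log2 intensity of the 6 genes on every array (y axis, a span of 3 log2 units in each panel), with IL2 arrays on the left and untreated arrays on the right. Numbers are replicates, circles are arrays whose titles name the time, triangles those whose titles do not, and bars give the mean and SD. The groups lie apart for Il12rb1, Il12rb2 and Il18bp and overlap for Il18r1, Il18rap and Il18.

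Il12rb1, on chromosome 8 (transcript cluster 10572497), encodes the IL12Rβ1 chain. Its log2 intensity was 8.96, 9.17, 9.59 and 9.66 in IL2 replicates 1 to 4, against 7.85, 7.89 and 7.40 in untreated replicates 2, 3 and 4. Every IL2 array lay above every untreated array, as was so for 6.25% of all genes. The means were 9.35 ± 0.33 with IL2 (SD, n = 4) and 7.71 ± 0.27 untreated (n = 3), which is 1.64 higher on the log2 scale (limma SE 0.20, adjusted p = 0.00669). Il12rb1 kept its call whichever of the 7 arrays was left out (limma adjusted p between 0.00727 and 0.0407). IL2 replicates 3 and 4 were brighter than IL2 replicates 1 and 2. Within the arrays whose titles name the time (replicates 3 and 4) the difference was 1.98, and within those whose titles do not (replicates 1 and 2, with 1 untreated array) it was 1.22. The labels do not say whether the title styles mark batches.

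Il12rb2, on chromosome 6 (transcript cluster 10545135), encodes the IL12Rβ2 chain, which carries the docking site for STAT4. Its log2 intensity was 11.13, 11.00, 11.22 and 10.99 in IL2 replicates 1 to 4, against 10.16, 9.16 and 9.35 in untreated replicates 2, 3 and 4. The IL2 arrays again lay wholly above, and they were close to each other, while untreated replicate 2 stood nearer to them than the other untreated arrays did. The means were 11.08 ± 0.11 with IL2 (SD, n = 4) and 9.56 ± 0.53 untreated (n = 3), which is 1.53 higher on the log2 scale (limma SE 0.22, adjusted p = 0.0133). The call ended without IL2 replicate 2, 3 or 4 or untreated replicate 4 (limma adjusted p between 0.0523 and 0.0829), with log2 fold changes of 1.42 to 1.56. Within the 2 title styles the difference was 1.85 with the time named and 0.91 without.

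A difference in response between the 2 chains did not pass the test. The log2 fold change of Il12rb2 minus that of Il12rb1 was -0.11 (two-sided exact permutation test over 4 against 3 arrays, p = 0.743, adjusted over 3 pairs 0.743). It ran between -0.39 and 0.12 with each array left out. With these group sizes the smallest p the test allows is 0.0571, so that no such difference could pass 0.05.

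**Figure D2:**
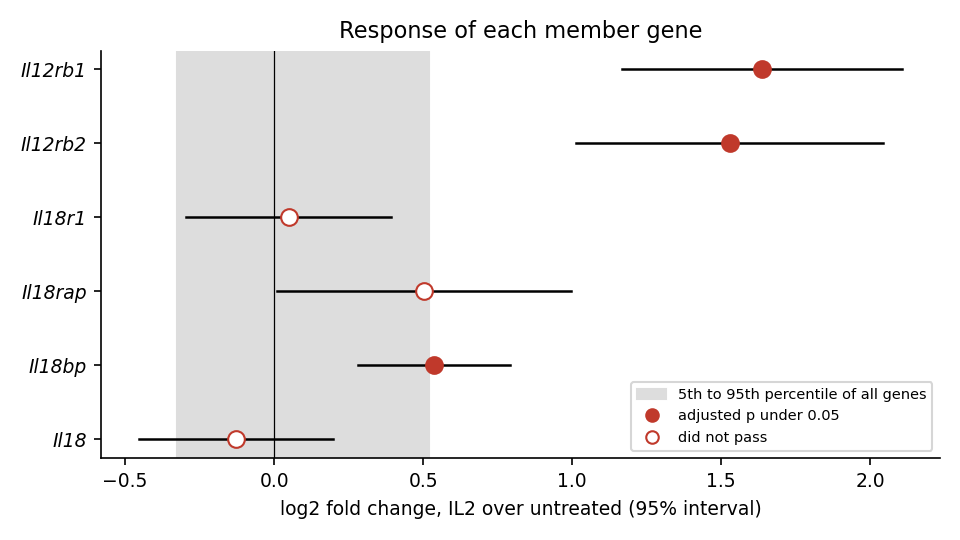
Log2 fold change of each gene, IL2 over untreated (x axis), with its 95% interval from limma. Filled points passed the test and open points did not, and the grey band spans the 5th to the 95th percentile of all genes, from -0.33 to 0.52. Il12rb1 (1.64) and Il12rb2 (1.53) lie far to the right of the band, and Il18bp (0.54) at its edge.

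Promoter sequences from RefSeq (build GRCm38.p6, 250 bases before to 50 after an annotated start) were found for 5 of the 6 genes, all but Il12rb1, in 7 windows. They are shown for Il12rb2, which rose, for Il18r1, which did not pass the test, and for Il18bp, which rose by less. The motifs searched on both strands were the STAT site TTCNNNGAA, its wider form (TTC, any 4 bases, GAA), the interferon response element (GAAA, any 2 bases, GAAA), the T-box site GGTGTGA and the NF-κB core (GGGA, any 2 bases, TTCC). Capitals mark the matches. The Il12rb2 window is chr6:67376139-67376438 on the minus strand, the Il18r1 window, at the third of its annotated starts, is chr1:40465756-40466055 on the plus strand, and the Il18bp window is chr7:102018183-102018482 on the minus strand.
Il12rb2: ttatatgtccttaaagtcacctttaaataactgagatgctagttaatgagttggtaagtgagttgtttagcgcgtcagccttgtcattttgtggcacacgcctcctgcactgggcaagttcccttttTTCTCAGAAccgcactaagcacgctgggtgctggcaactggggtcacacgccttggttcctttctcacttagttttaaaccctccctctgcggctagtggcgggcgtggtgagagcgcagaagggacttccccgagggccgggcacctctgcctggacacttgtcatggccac
Il18r1: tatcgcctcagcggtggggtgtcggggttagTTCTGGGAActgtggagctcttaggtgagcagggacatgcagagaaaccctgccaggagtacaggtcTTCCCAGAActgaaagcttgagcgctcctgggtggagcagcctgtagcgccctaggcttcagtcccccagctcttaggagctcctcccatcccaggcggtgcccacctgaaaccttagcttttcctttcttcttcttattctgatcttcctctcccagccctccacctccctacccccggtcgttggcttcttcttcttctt
Il18bp: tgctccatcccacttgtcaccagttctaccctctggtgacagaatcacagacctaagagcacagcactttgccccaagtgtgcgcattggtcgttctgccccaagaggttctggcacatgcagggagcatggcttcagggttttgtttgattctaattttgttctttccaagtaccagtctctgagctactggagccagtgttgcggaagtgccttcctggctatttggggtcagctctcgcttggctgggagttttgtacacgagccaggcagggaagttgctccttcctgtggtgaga
The Il12rb2 window held 1 STAT site, and this Il18r1 window held 2, while the Il18bp window held no match to the 5 motifs. The other 2 Il18r1 windows overlap each other and share 1 wider STAT match, and the Il18rap and Il18 windows held 1 wider match each. Of 32851 promoter windows of all genes, 8.3% held the STAT site and 6.95% the wider form. The interferon, T-box and NF-κB motifs, in the letters searched, were in 3.44%, 3.98% and 1.47% of all windows, and in none of the 7. Other forms of these sites were not searched, so that absence of a site cannot be read from this. The Il12rb2 window holds gggacttccc, which differs from the NF-κB core searched in 1 base. Near matches were not counted in the other windows, for the other motifs or over all genes. This near match can therefore not be read as particular to Il12rb2. A match in letters is not evidence of binding. STAT letters of either spacing were in the windows of Il12rb2, which passed the test, and of Il18r1, Il18rap and Il18, which did not.

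Neither IL18 receptor gene passed the test. Il18r1, on chromosome 1 (transcript cluster 10345807), encodes the ligand-binding chain IL18Rα. Its log2 intensity was 8.69, 8.72, 8.72 and 8.93 in IL2 replicates 1 to 4, against 9.03, 8.40 and 8.72 in untreated replicates 2, 3 and 4. The untreated arrays spanned the whole range of the IL2 arrays. IL2 replicates 2 and 3 and untreated replicate 4 held exactly the same value, as happened on at least a pair of arrays for 53.3% of all probes. Such repeats may lower the measured spread, which was not tested. The log2 fold change was 0.05 (SE 0.15, 95% interval -0.29 to 0.39, limma adjusted p = 0.938). It was 0.26 within the arrays whose titles name the time and -0.32 within the others, so that its sign did not hold.

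Il18rap, next to Il18r1 on chromosome 1 (transcript cluster 10345824), encodes the accessory chain IL18Rβ. Its log2 intensity was 9.12, 9.41, 9.55 and 9.45 in IL2 replicates 1 to 4, against 9.25, 8.35 and 9.03 in untreated replicates 2, 3 and 4. The groups overlapped because untreated replicate 2 was above IL2 replicate 1. The log2 fold change was 0.50 (SE 0.21, 95% interval 0.01 to 1.00), at a limma adjusted p of 0.358 and an unadjusted p of 0.0462. The difference was 0.81 within the arrays whose titles name the time and 0.01 within the others. It was 0.24 without untreated replicate 3.

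The IL18 receptor genes were then set against each other within each array. The difference in log2 value, Il18rap minus Il18r1, was 0.43, 0.69, 0.83 and 0.52 in IL2 replicates 1 to 4, against 0.22, -0.05 and 0.31 in untreated replicates 2, 3 and 4. All IL2 arrays lay above all untreated arrays in this difference, which averaged 0.46 more with IL2. The two-sided exact permutation test gave p = 0.0571, the smallest it can give here, and 0.0857 after adjustment over the 3 pairs. That adjustment includes Il18 minus Il18bp, a pair not read as a test below, and the adjusted p would be higher without it. The difference was between 0.35 and 0.53 with each array left out.

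Il18bp, on chromosome 7 (transcript cluster 10566050), encodes the IL18-binding protein, whose gene is known to be induced by interferon-γ. Its log2 intensity was 8.42, 8.40, 8.53 and 8.23 in IL2 replicates 1 to 4, against 8.01, 7.90 and 7.67 in untreated replicates 2, 3 and 4. The groups did not overlap. The means were 8.39 ± 0.13 with IL2 (SD, n = 4) and 7.86 ± 0.17 untreated (n = 3), which is 0.54 higher on the log2 scale (limma SE 0.11, adjusted p = 0.0488). The call ended with any 1 of the 7 arrays left out, at limma adjusted p-values of 0.0537 to 0.156, while the log2 fold change stayed between 0.44 and 0.61. The difference was 0.59 within the arrays whose titles name the time and 0.40 within the others.

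Il18, on chromosome 9 (transcript cluster 10585194), encodes the cytokine itself. Its log2 intensity was 4.64, 4.83, 4.97 and 4.69 in IL2 replicates 1 to 4, against 5.20, 4.70 and 4.83 in untreated replicates 2, 3 and 4. IL2 replicate 2 and untreated replicate 4 held exactly the same value. The groups overlapped, and untreated replicate 2 was the brightest array. These values are 24.9 to 36.8 on the linear scale, where the median of all probes on an array was 121 to 131, and the table holds no detection calls that would show whether so dim a probe measured any transcript. The log2 fold change was -0.13 (SE 0.14, 95% interval -0.45 to 0.20, limma adjusted p = 0.79). Il18 minus Il18bp in log2 value averaged 0.66 less with IL2 (-0.66), of which the rise of Il18bp by 0.54 is the larger share, and since Il18 was not shown to be above background no test of it is given.

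Among the untreated arrays, replicate 2 was the highest for Il12rb2, Il18r1, Il18rap, Il18bp and Il18, and Il12rb1 was highest in replicate 3. Replicate 2 also had the highest summed level of the NK cell markers among the untreated arrays, 13.09 on the log2 scale, against 12.42 in untreated replicate 3 and 12.31 in untreated replicate 4. This was not particular to NK cell markers. Its sums were also the highest for macrophage and monocyte markers (14.03 against 13.96 and 13.91) and B cell markers (14.12 against 13.93 and 14.00). They were not the highest for T cell, dendritic cell or neutrophil markers. Over all arrays the NK cell marker sum was 13.69 to 14.11 with IL2 and 12.31 to 13.09 untreated. Of 11 NK cell markers measured, 3 rose (Ncr1, Klrb1c and Itga2), 0 fell and all 11 had positive log2 fold changes, with a median of 0.99. Of 14 macrophage and monocyte markers, 10 fell and 0 rose (median -1.84), and their sum was 12.06 to 12.60 with IL2 and 13.91 to 14.03 untreated. Cd79a, a chain of the B cell receptor complex, was at a log2 intensity of 11.92 ± 0.08 with IL2 (SD, n = 4) and 12.05 ± 0.15 untreated (n = 3). Of 9 B cell markers 1 fell, 0 rose and 0 had a positive log2 fold change (5 lower at an unadjusted p under 0.05, median -0.29), and their sum was 13.69 to 13.77 with IL2 and 13.93 to 14.12 untreated. Of 10 T cell markers 0 were called by limma, also at an unadjusted p under 0.05, and 4 had a positive log2 fold change (median -0.04), with sums of 10.80 to 11.66 with IL2 and 10.95 to 11.59 untreated. The T cell sums split by title style in both groups. They were 10.80 to 10.95 on the arrays whose titles do not name the time and 11.33 to 11.66 on the others. The cause was not tested. Of 10 dendritic cell markers 1 fell, 0 rose and 4 had a positive log2 fold change (4 lower and 1 higher at an unadjusted p under 0.05, median -0.10), with sums of 11.87 to 12.14 with IL2 and 12.26 to 12.49 untreated. Of 10 neutrophil markers 1 fell, 0 rose and 0 had a positive log2 fold change (6 lower at an unadjusted p under 0.05, median -0.75), with sums of 11.29 to 11.98 with IL2 and 12.58 to 12.81 untreated. RMA values are never at 0, so that absence of a cell type cannot be read from them. In these bulk samples fewer cells of a type and less RNA per cell cannot be told apart. The part of cell makeup in the changes of the 6 genes, and of the genes in the lists below, was not tested.

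**Figure D3:**
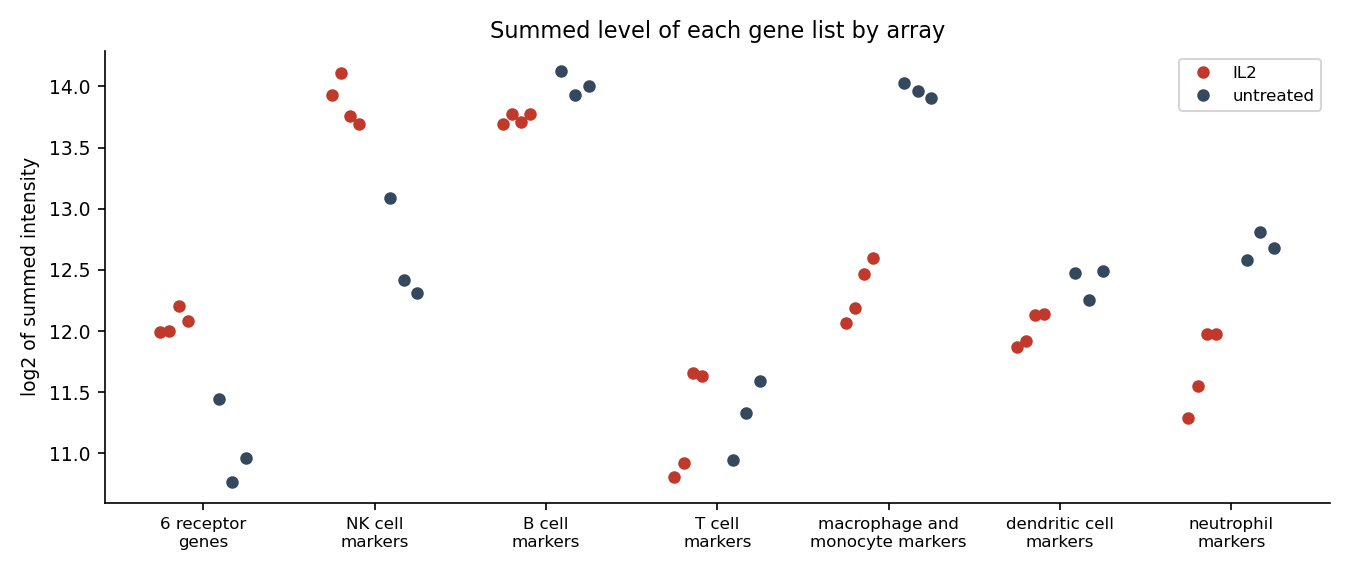
Log2 of the summed intensity of each gene list (y axis) on the 4 IL2 arrays (left of each pair) and the 3 untreated arrays (right). The sums of the 6 receptor and ligand genes and of the NK cell markers are higher on every IL2 array, those of macrophage and monocyte, neutrophil, B cell and dendritic cell markers are lower on every IL2 array, and those of T cell markers overlap. A sum of intensities is weighted to its brightest genes, Il12rb2 among the 6, and does not show that all 6 rose.

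The genes that carry the IL12 signal beyond the receptor were mostly not called. Stat4, the transcription factor of the pathway, was at a log2 intensity of 11.31 ± 0.06 with IL2 (SD, n = 4) and 11.30 ± 0.23 untreated (n = 3), a log2 fold change of 0.01 (SE 0.12). The kinase genes Jak2 (-0.04, SE 0.15) and Tyk2 (0.20, SE 0.16) also did not pass the test. Of 9 measured genes of IL12 receptor signalling and its feedback, 3 rose and 0 fell, with a median of 0.40 and, at an unadjusted p under 0.05, 5 higher and 0 lower. All 3 encode cytokine signalling inhibitors, namely Cish (1.94, limma SE 0.19), Socs1 (2.84, limma SE 0.09, adjusted p = 1.73e-05) and Socs3 (0.82, limma SE 0.15, named after its value was seen). These inhibitors are known targets of STAT5, the main factor of the IL2 receptor.

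IL12 and its relatives were not called either. Of 8 genes for IL12 family cytokine chains and related receptor chains, 0 were called by limma, and 0 had an unadjusted p under 0.05. Il6st, the gene of the shared gp130 receptor chain, differed most, at -0.50 (SE 0.26). Il23r, which pairs with IL12Rβ1 in the IL23 receptor, was at 6.95 ± 0.24 with IL2 and 6.66 ± 0.09 untreated on the log2 scale (SD, n = 4 and 3), a log2 difference of 0.29 (limma SE 0.14, adjusted p = 0.435).

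No IL18 signalling gene passed the test. Of 17 measured, 0 were called by limma in either direction with a median of 0.10, while 3 were higher and 1 lower at an unadjusted p under 0.05. The adaptor gene Myd88 differed by 0.33 on the log2 scale (limma SE 0.13, adjusted p = 0.285), and the kinase gene Irak1 and the ubiquitin ligase gene Traf6 had 0.12 (SE 0.18) and 0.19 (SE 0.16). Irak3, the gene of an inhibitory IRAK that is known from macrophages and monocytes, differed most, at -0.86 (SE 0.18, limma adjusted p = 0.0573). Irak3 lay at 8.51 ± 0.09 with IL2 and 9.36 ± 0.43 untreated (SD, n = 4 and 3). On the same arrays the macrophage and monocyte marker median was -1.84, and a link between them was not tested. The list had 1 gene lower without untreated replicate 3.

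Of 6 other genes of the IL1 receptor family, 0 were called by limma, and 0 had an unadjusted p under 0.05. Il1r2, the gene of a decoy receptor for IL1, differed most, at -0.28 (SE 0.13). Of 9 IL1 family cytokine genes, 0 were called by limma (0 higher and 1 lower at an unadjusted p under 0.05). Il1b differed most, at -1.09 (SE 0.43, limma adjusted p = 0.322).

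Of 12 genes for the maturation and release of IL18, 1 rose and 1 fell. Casp1, the protease that cleaves the IL18 precursor, differed by 0.08 on the log2 scale (limma SE 0.20, adjusted p = 0.926). Casp4, which encodes caspase-11, the sensor of cytosolic lipopolysaccharide, was at 8.38 ± 0.19 with IL2 and 7.51 ± 0.18 untreated (SD, n = 4 and 3), a rise of 0.87 (SE 0.13, limma adjusted p = 0.0143). Mefv, the gene of the inflammasome sensor pyrin, was at 6.62 ± 0.13 with IL2 and 7.45 ± 0.11 untreated, a fall (-0.83, SE 0.10, limma adjusted p = 0.00632). The count of genes higher was 0 without IL2 replicate 2, 3 or 4 or untreated replicate 3 or 4, and the count of genes lower was 2 without untreated replicate 3. In these fits the number higher over all genes also fell.

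Genes that IL12 and IL18 are known to induce in NK cells were listed as well, and the labels name neither cytokine as added. Of 15 such genes, 9 rose and 0 fell (12 and 0 at an unadjusted p under 0.05), with a median of 0.83. The largest rises were in Ifng, the interferon-γ gene, at 3.47 (SE 0.14, limma adjusted p = 5.98e-05), and Xcl1, a chemokine gene, at 3.23 (SE 0.25). Several of these genes are also known to respond to IL2, so that the list is not specific to IL12 and IL18. The count was 5 without IL2 replicate 2, 3 or 4 or untreated replicate 3 or 4. Over all genes, 134, 144, 159, 178 and 162 were higher in these fits, against 410 with all 7 arrays.

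Of 12 transcription factor genes linked to the receptor genes, 4 rose and 1 fell. Irf1, a factor of the interferon response, was at 10.77 ± 0.26 with IL2 and 9.11 ± 0.34 untreated (SD, n = 4 and 3), a rise of 1.66 (SE 0.19, limma adjusted p = 0.00534). Tbx21, which encodes T-bet, a factor known to act on Il12rb2 in T cells, was at 10.21 ± 0.17 with IL2 and 8.79 ± 0.32 untreated, a rise of 1.42 (SE 0.16, limma adjusted p = 0.00473). Irf8 (1.22) and Runx3 (1.15) also rose, and Cebpb, of the C/EBP family, fell (-0.73), these 3 being named after their values were seen. The count of genes higher was 2 without IL2 replicate 2 or 3, and that of genes lower was 0 without either of these or untreated replicate 3 or 4. Over all genes, the numbers higher and lower also fell in these fits.

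**Figure D4:**
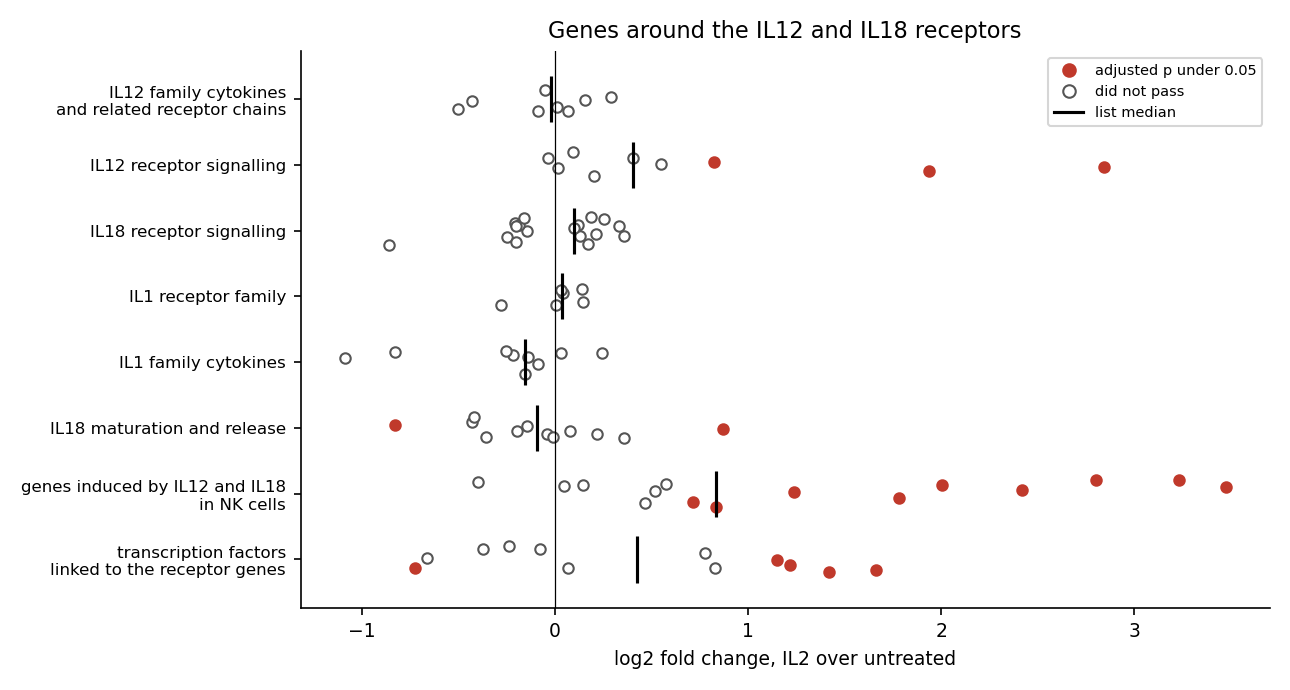
Log2 fold change, IL2 over untreated (x axis), of every measured gene in the 8 lists around the receptors (rows), with filled points for genes that passed the test and bars at the list medians. Filled points to the right lie in 4 lists, with 9 in that of genes induced by IL12 and IL18 and 4 in that of transcription factors.

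The genes most like each called gene over the 7 arrays were found by the root mean square difference of log2 values, each gene centred on its own mean. For Il12rb1 these were Gm12185 (0.12), Mfsd2a (0.13), a lipid transporter gene, and Plscr1 (0.17), the phospholipid scramblase gene. For Il12rb2 they were Trim30a (0.11), Il2rb (0.14), which encodes the β chain of the IL2 receptor, and Ube2l6 (0.16), the conjugating enzyme for ISG15. For Il18bp they were Serbp1 (0.07), Anp32b (0.07) and A530032D15Rik (0.08). The 3 genes nearest to Il12rb2 rose by 1.32, 1.47 and 1.32 on the log2 scale. This likeness rests on both the group difference and the spread within groups, and it was not tested.

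Of the 6 genes, Il12rb1, Il12rb2 and Il18bp kept a positive log2 fold change at each of the 18 other settings tried. The range was 1.22 to 1.98 for Il12rb1, 0.91 to 1.85 for Il12rb2 and 0.40 to 0.61 for Il18bp. Il18rap was also positive at each (0.01 to 0.81). Il18r1 ran between -0.32 and 0.26 and Il18 between -0.47 and 0.07, so that neither held a sign.

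**Figure D5:**
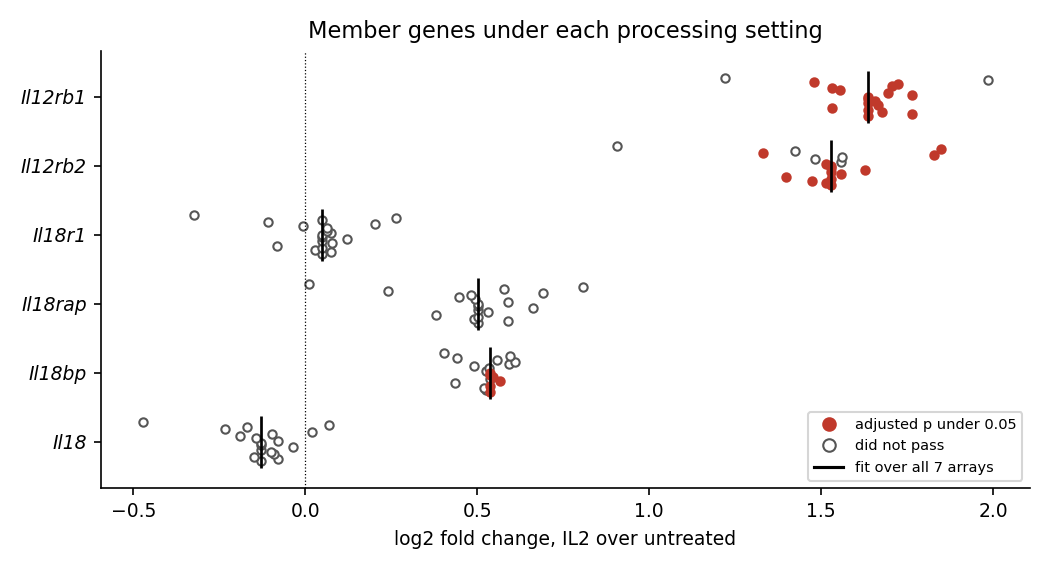
Log2 fold change of the 6 genes, IL2 over untreated (x axis), under each setting, with 1 point per setting and the fit over all 7 arrays as a bar. Points of Il12rb1 are filled at all but 2 settings, those of Il12rb2 at all but 5, and those of Il18r1, Il18rap and Il18 at none.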

How the data were processed

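The authors deposited 1 intensity value per transcript cluster and array on a linear scale, for which the submitters' processing notes name RMA and Affymetrix Power Tools. Versions, settings and the set of arrays normalized in common are not given in the sources used here. Log2 was taken with no offset. Of 24922 probes, 21425 had 1 gene symbol, 1399 several and 2098 none in the platform annotation, and those with 1 symbol were used, keeping the brightest probe per gene (19752 genes, no filter on signal). Groups came from the sample labels. Expression was fitted in limma 3.58.1 (R 4.3.3) with treatment as the factor and default eBayes settings (7.68 degrees of freedom in total). The adjusted p is Benjamini-Hochberg over all genes, with a threshold of 0.05, and ± gives the SD over arrays. Differences between 2 of the genes were tested with an exact permutation test. The number of arrays limits the precision. The fit was tested on simulated data.

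The 6 genes and all lists were chosen with earlier results of these data known. Named genes were the 6, a set of pathway genes always named, the 2 called genes with the largest change of each pathway list (or, in a list with no call, the gene that differed most), and the 3 genes most alike to each called gene. Some listed genes were not analysed here. The alternatives were the replicate number or title style as a block, a filter at the median signal, quantile normalization again, centred arrays, array quality weights (statmod 1.5.0), a trended robust eBayes, the mean of all probes, all probes tested, leaving out each array, and each title style alone.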

Additional observations from a re-analysis of the deposited data

Results flagged for a closer look

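In 3 of 35 named genes, 1 of the 4 IL2 arrays stood apart from the other three by a test for an outlying value that chance alone meets in about 1 of 20 groups. For Il18r1, IL2 replicate 4 was the highest, at a log2 intensity of 8.93, with the others between 8.69 and 8.72. Among those others, IL2 replicates 2 and 3 held exactly the same value, which narrows their range. For Tbx21, IL2 replicate 1 was the lowest, at 9.95, with the others between 10.27 and 10.31. For Irf1, IL2 replicate 1 was the lowest as well, at 10.38, with the others between 10.89 and 10.92.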

How the results depend on the processing

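Il12rb1 kept its call at 16 of 18 settings. It lost it over the arrays whose titles name the time (1.98, limma adjusted p = 0.0653) and over those whose titles do not (1.22, limma adjusted p = 0.358). Il12rb2 kept its call at 13 of 18, and lost it over the arrays whose titles do not name the time (0.91, limma adjusted p = 0.356) and with 4 of the 7 arrays left out. With each array left out, the log2 fold change of Il12rb1 was 1.48 to 1.76, that of Il12rb2 was 1.33 to 1.83 and that of Il18bp was 0.44 to 0.61. Il18bp kept its call at 5 of 18 settings. It lost it with the replicate block (0.53, limma adjusted p = 0.0579), title style as a block (0.52, 0.0543), quantile normalization again (0.44, 0.132), eBayes with trend and robust (0.54, 0.0678), over the arrays whose titles name the time (0.59, 0.174) and over those whose titles do not (0.40, 0.356), and with any 1 array left out. The count of the 6 genes higher was 1 to 2 with an array left out, 1 over the arrays whose titles name the time and 0 over the others, and 0 were lower at any setting. Over all genes, 81 were higher over the arrays whose titles name the time, against 410 in the main fit. Il18r1, Il18rap and Il18 were called at none of the settings, and Il18 was absent from the fit that kept genes at or above the median signal. Differences within the 3 pairs moved by less than their SD over the untreated arrays (0.52, 0.19 and 0.22), the larger of the groups' SDs, although Il18 minus Il18bp over the arrays whose titles do not name the time (-0.87) moved beyond its SD over the IL2 arrays (0.12). Over the arrays whose titles do not name the time, 0 genes were higher in every list around the receptors, and in that fit, with a single untreated array taken to vary like the IL2 arrays, 0 of all genes were called. The cause of these lost calls was not tested, beyond the fewer arrays in some fits.

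The replicate numbers 2, 3 and 4 occur in both groups. Deviations from the group means correlated at 0.46, -0.30 and 0.31 between arrays of the same number. Between arrays of different numbers they correlated at -0.48 to 0.45. So few values cannot decide whether the numbers pair the arrays. The replicate block changed the call of Il18bp but of none of the other 5 genes. Over all genes it gave 554 higher and 184 lower, against 410 and 178 without it. IL2 replicate 1 has no untreated array of its number, so that the block takes it out of the comparison. Leaving that array out with no block gave 517 higher and 144 lower. It also ended the call of Il18bp (limma adjusted p = 0.0907), so that these changes cannot be read as an effect of pairing. Quantile normalization again gave 730 higher and 628 lower, which took the IL18 signalling genes lower to 2 (1 with the filter at the median signal) and the linked transcription factors lower to 3. Title style as a block took the latter count to 2, and either block took the IL1 family cytokines lower to 1. Over the arrays whose titles name the time, 0 genes of IL18 maturation were called and 1 linked transcription factor was higher.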

Other observations

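The chromosomal neighbours of the genes were looked up after the values had been seen, in the RefSeq annotation of GRCm38.p6. Il12rb2 lies between Serbp1, which its annotated interval overlaps, and Il23r. Serbp1, an RNA-binding protein gene, rose by 0.53 (log2; limma SE 0.10, adjusted p = 0.0318), and Il23r had a log2 fold change of 0.29 that did not pass the test. The neighbours of Il12rb1, Mast3 (-0.04, SE 0.14) and Arrdc2 (-0.06, SE 0.07), did not pass the test, and neither did those of Il18bp, Numa1 (-0.17, SE 0.10) and Rnf121 (0.16, SE 0.08).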
